A study of Mus musculus with 11 samples.

Results

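Il4, Il21, Csf2, Il4ra and Il17rb encode 3 cytokines of helper T cells and 2 receptor chains, and they are 5 of the 908 named genes on a custom Affymetrix glycan gene chip with 1246 probe sets. The 5 genes were chosen with earlier results of these data known, and their rows were then found by name. A row belonged to a gene when its ID carried a RefSeq transcript of that gene, and each of the 5 genes had 1 such row. RNA came from spleen CD4+ T cells of female C57BL/6 mice, divided by flow sorting into 3 populations, and each sample was hybridised to 1 array. Cells with CD25 and low CD45RB are labelled Treg, the regulatory population, and have replicates 1, 2 and 4 (n = 3). Cells without CD25 were split into CD45RBlow, labelled as activated or memory (n = 4), and CD45RBhigh, labelled as naive (n = 4). No allele, agent or treatment is named for any group. The CD25- samples came from naive mice of 4 to 6 weeks, and no age is given for the Treg samples, so age cannot be told apart from population in the comparisons with Treg. The labels do not say whether replicates came from separate or pooled animals, and p-values then measure only the spread between these samples, which may be technical.

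Interleukin-4 (Il4) drives type 2 helper differentiation and antibody class switching, and acts through Il4ra, a chain that pairs with the common gamma chain or with the first chain of the interleukin-13 receptor. Interleukin-21 (Il21) is the main cytokine of follicular helper cells and also supports cells of the interleukin-17 lineage, and Csf2 encodes GM-CSF, a growth factor for myeloid cells that activated helper cells make. Il17rb is the chain that gives the receptor for interleukin-25 its specificity, and among T cells it is known from type 2 helper cells and from a subset of natural killer T (NKT) cells.

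Values are log2 expression after Robust Multichip Average (RMA) processing, and probe sets bind with different strength, so levels are compared between populations and never between genes. The first quartile of all values, 3.64, is used to mark levels near background. Array medians lay between 4.85 and 4.94. The sorted label was checked on Il2ra, which encodes CD25: its log2 level was 9.69 to 10.02 on Treg arrays, 5.77 to 6.54 on CD45RBlow arrays and 3.85 to 4.45 on CD45RBhigh arrays. Of the regulatory T cell signature 4 of 17 genes were measured, and all 4 were called higher in Treg than in either CD25- population. The same 4 were also called higher in CD45RBlow than in CD45RBhigh: Il2ra 4.28-fold, Klrg1 4.12-fold, Itgae 3.86-fold and Il10 2.13-fold. Their summed linear level was 2911 to 4042 on Treg, 357 to 632 on CD45RBlow and 118 to 161 on CD45RBhigh arrays. None of the 12 genes listed as defining CD4 T cells has a named row (0 measured), so that identity rests on the sort. Each array holds RNA of a whole sorted population, so fewer cells making a transcript and less RNA per cell cannot be told apart.

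Promoters of Il4 and Il21 are shown as those of the cytokines with the largest differences between populations below. They are the 250 bases before the gene's start in RefSeq on build GRCm38.p6, with matches to the core of the motif of NFAT, a factor activated by T cell receptor signalling, in capitals (GGAAA on either strand, so TTTCC on the printed one).
Il4, minus strand, chr11:53618666-53618915: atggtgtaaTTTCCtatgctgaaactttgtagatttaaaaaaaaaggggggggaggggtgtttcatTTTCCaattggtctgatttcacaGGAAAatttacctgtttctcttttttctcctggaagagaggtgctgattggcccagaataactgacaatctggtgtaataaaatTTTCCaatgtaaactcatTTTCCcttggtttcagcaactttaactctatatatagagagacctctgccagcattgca
Il21, minus strand, chr3:37232637-37232886: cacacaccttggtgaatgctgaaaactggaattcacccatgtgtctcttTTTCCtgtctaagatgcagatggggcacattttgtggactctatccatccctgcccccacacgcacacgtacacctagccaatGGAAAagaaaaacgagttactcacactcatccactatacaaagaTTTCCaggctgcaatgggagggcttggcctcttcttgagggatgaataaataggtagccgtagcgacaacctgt
Il4 holds 5 matches, which begin 241, 184, 161, 77 and 59 bases before the start, and Il21 holds 3, at 201, 118 and 74 bases. Across 32851 promoters of this length 55.6% hold at least 1 match, 6.39% hold 3 or more and 0.39% hold 5 or more. Il4 has a further entry at another start inside the gene, with 0 matches. The Il4ra promoter holds 1 match, and the entry for Csf2, not printed because its transcript is not given, holds 2. The same stretches were also searched for the motifs of AP-1 (TGANTCA) and GATA factors (GATAA) and for TATAA. Those of Il4, Il21 and Il4ra hold 0 matches to each of these, and that of Csf2 holds 1 to GATAA. Of all promoters 22.6% hold GATAA and 22.8% hold TATAA. The share of G and C bases is 37.6% in the printed Il4 stretch and 47.6% in that of Il21. A match is a description of letters and not a binding site.

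The promoter of Il17rb is shown as that of the receptor chain with the clearest order among populations. Capitals mark a match to the AP-1 motif (TGANTCA), 104 to 98 bases before the start.
Il17rb, minus strand, chr14:30008897-30009146: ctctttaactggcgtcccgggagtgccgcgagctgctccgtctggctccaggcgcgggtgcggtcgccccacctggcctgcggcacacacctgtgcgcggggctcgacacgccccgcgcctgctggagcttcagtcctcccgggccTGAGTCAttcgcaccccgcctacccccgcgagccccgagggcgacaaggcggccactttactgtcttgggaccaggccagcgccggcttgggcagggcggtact
It holds 0 matches to GGAAA. The AP-1 motif occurs in 6.75% of the 32851 promoters, and no match overlaps another in these stretches.

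Il4 lies at chr11:53612460-53618665 and had its highest levels in CD45RBlow cells. Its log2 level was 6.87, 7.13, 5.97 and 6.50 on the CD45RBlow arrays of replicates 1 to 4. On the CD45RBhigh arrays it was 4.16, 3.98, 4.03 and 4.12, and on the Treg arrays of replicates 1, 2 and 4 it was 3.66, 3.90 and 4.33. The lowest CD45RBlow array lay above every array of both other populations, which overlapped each other. The mean was 6.62 ± 0.50 (SD, n = 4) in CD45RBlow, 4.07 ± 0.08 (SD, n = 4) in CD45RBhigh and 3.96 ± 0.34 (SD, n = 3) in Treg. CD45RBlow exceeded CD45RBhigh by 2.54 on the log2 scale (SE 0.22, 95% interval 2.06 to 3.03), a 5.83-fold difference with an adjusted p of 1.27e-05 by limma with Benjamini-Hochberg adjustment over all 1246 probe sets. Against CD45RBlow, Il4 was lower in Treg by a log2 difference of -2.65 (limma adjusted p = 1.75e-05), while Treg and CD45RBhigh differed by -0.11 (interval -0.63 to 0.41, limma adjusted p = 0.811), a difference whose sign turned to 0.04 without Treg replicate 1 and to 0.25 among replicates 3 and 4 alone.

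Il21, at chr3:37222759-37232636, also had its highest levels in CD45RBlow cells, but its arrays there were far apart. The log2 level was 6.65, 7.39, 4.71 and 4.34 on CD45RBlow replicates 1 to 4, 3.32, 3.18, 2.85 and 3.25 on CD45RBhigh replicates 1 to 4, and 3.63, 3.63 and 3.26 on Treg replicates 1, 2 and 4. Every CD45RBlow array was above every other array, and replicates 1 and 2 were well above replicates 3 and 4. The means of Treg (3.51 ± 0.21, SD, n = 3) and CD45RBhigh (3.15 ± 0.21, SD, n = 4) lay under the first quartile of all values, so folds against them may be understated. CD45RBlow (5.77 ± 1.48, SD, n = 4) exceeded CD45RBhigh by 2.62 on the log2 scale (SE 0.56, interval 1.38 to 3.86). The estimate is 6.15-fold (interval 2.61 to 14.5), with a limma adjusted p of 0.00974.

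Against CD45RBlow, Il21 in Treg differed by -2.27 on the log2 scale (interval -3.60 to -0.93, limma adjusted p = 0.0304). That call did not hold without Treg replicate 1 (limma adjusted p = 0.0856), Treg replicate 2 (0.0803), Treg replicate 4 (0.0937) or CD45RBlow replicate 1 (0.0886), nor in a fit of the arrays compared alone (0.0961). With the replicate number as a block it was -2.49, with a limma adjusted p of 0.00256. Treg and CD45RBhigh differed by 0.36 (interval -0.98 to 1.69, limma adjusted p = 0.765).

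Csf2, at chr11:54247270-54249899, was also highest in CD45RBlow cells, with smaller differences. Its log2 level was 5.51, 5.10, 4.75 and 4.91 on CD45RBlow replicates 1 to 4, 4.21, 3.88, 4.10 and 4.23 on CD45RBhigh replicates 1 to 4, and 4.20, 4.12 and 4.23 on Treg replicates 1, 2 and 4. All CD45RBlow arrays were above all others, and Treg and CD45RBhigh overlapped. CD45RBlow (5.07 ± 0.33, SD, n = 4) exceeded CD45RBhigh (4.10 ± 0.16, SD, n = 4) by 0.97 on the log2 scale (SE 0.14, interval 0.65 to 1.28), a 1.95-fold difference with a limma adjusted p of 0.000699. Treg (4.18 ± 0.05, SD, n = 3) lay below CD45RBlow by a log2 difference of -0.89, a 1.85-fold difference with a limma adjusted p of 0.00244, and differed from CD45RBhigh by 0.08 (interval -0.26 to 0.42, adjusted p = 0.787). Among replicates 3 and 4 alone, with 1 Treg array, the Treg minus CD45RBlow difference was -0.61, with a limma adjusted p of 0.0685.

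**Figure D1:**
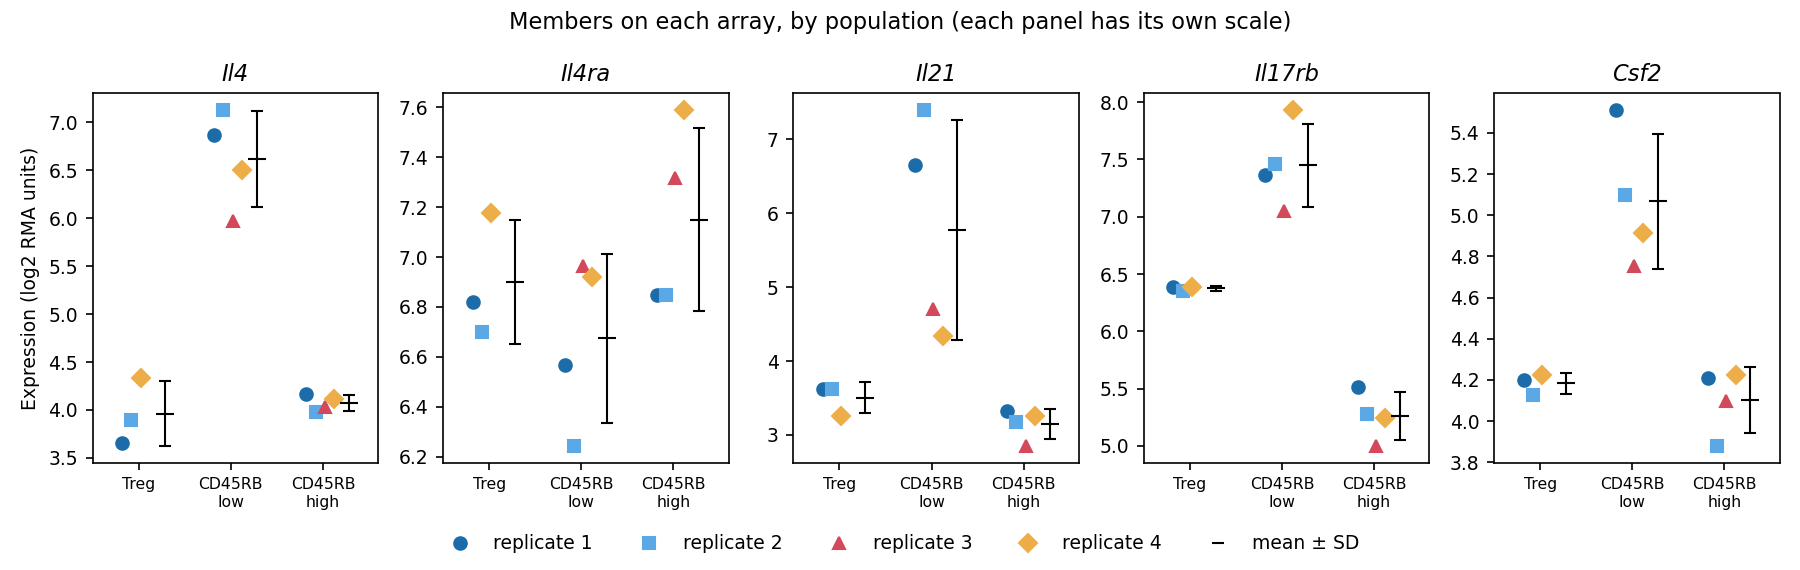
Log2 expression (RMA) of the 5 genes on each of the 11 arrays, 1 panel per gene, with marker shapes for replicate numbers and bars for mean ± SD of each population; each panel has its own scale. Il4, Il21, Csf2 and Il17rb are highest on the 4 CD45RBlow arrays, and the Il4ra arrays of the 3 populations overlap.

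Il17rb, at chr14:29996168-30008896, was the member whose 3 populations were fully separate. Its log2 level was 7.36, 7.46, 7.05 and 7.93 on CD45RBlow replicates 1 to 4, 6.39, 6.35 and 6.39 on Treg replicates 1, 2 and 4, and 5.51, 5.28, 4.999 and 5.24 on CD45RBhigh replicates 1 to 4. No array of 1 population entered the range of another. CD45RBlow (7.45 ± 0.36, SD, n = 4) exceeded CD45RBhigh (5.26 ± 0.21, SD, n = 4) by 2.19 on the log2 scale (SE 0.16, interval 1.84 to 2.55), a 4.57-fold difference that ranked 7 of 1246 by p (limma adjusted p = 6.08e-06). Treg (6.38 ± 0.02, SD, n = 3) lay between them: it was 2.17-fold above CD45RBhigh (1.12 on the log2 scale, limma adjusted p = 0.000718) and 2.11-fold below CD45RBlow (-1.08, adjusted p = 0.0015). The probe set's ID carries the suffix s, so it may bind more than 1 transcript.

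Il4ra, at chr7:125552271-125579474, had the opposite order of means and much smaller differences. Its log2 level was 6.57, 6.24, 6.96 and 6.92 on CD45RBlow replicates 1 to 4, 6.82, 6.70 and 7.18 on Treg replicates 1, 2 and 4, and 6.85, 6.85, 7.32 and 7.59 on CD45RBhigh replicates 1 to 4. The 3 populations overlapped, and within each of them replicates 1 and 2 were the lowest arrays. CD45RBlow (6.67 ± 0.34, SD, n = 4) differed from CD45RBhigh (7.15 ± 0.36, SD, n = 4) by -0.48 on the log2 scale (interval -0.92 to -0.03), which did not pass (limma adjusted p = 0.16). With the replicate number as a block the same difference of -0.48 had an SE of 0.08 and passed (limma adjusted p = 0.00157), and Treg exceeded CD45RBlow by 0.30 (SE 0.09, 1.23-fold, adjusted p = 0.04) where the fit without the block gave 0.23 (adjusted p = 0.614). With the number as a random block neither passed: the differences were -0.48 (limma adjusted p = 0.058) and 0.25 (adjusted p = 0.39). Treg and CD45RBhigh differed by -0.25 without the block (interval -0.74 to 0.24, limma adjusted p = 0.543) and by -0.17 with it (adjusted p = 0.219).

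Between CD45RBlow and CD45RBhigh cells 4 of the 5 genes were called, all higher in CD45RBlow, where limma called 12.6% of all probe sets in either direction and 7.62% as higher in CD45RBlow. With the replicate block 4 were called higher and 1, Il4ra, lower, against 21.7% of all probe sets in either direction. Between Treg and CD45RBlow cells the same 4 genes were called lower in Treg, against 12.5% of all probe sets called in either direction and 5.78% called lower in Treg. With the block 4 were called lower and Il4ra higher, against 19.7% of all probe sets in either direction. Between Treg and CD45RBhigh cells 1 of the 5 was called, Il17rb, against 18.9% of all probe sets, and with the block also 1, against 26.5%. The arrays of the 2 populations did not overlap for 4 of the 5 genes between CD45RBlow and CD45RBhigh (17.8% of all probe sets) and between Treg and CD45RBlow (21.3%), and for 1 of the 5 between Treg and CD45RBhigh (25.0%). The comparisons of CD45RBlow with CD45RBhigh and with Treg share the CD45RBlow arrays, so the 4 genes called in both are not independent evidence. Because the members were chosen with earlier results of these data known, the shares of all probe sets are given for scale and are not a test.

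**Figure D2:**
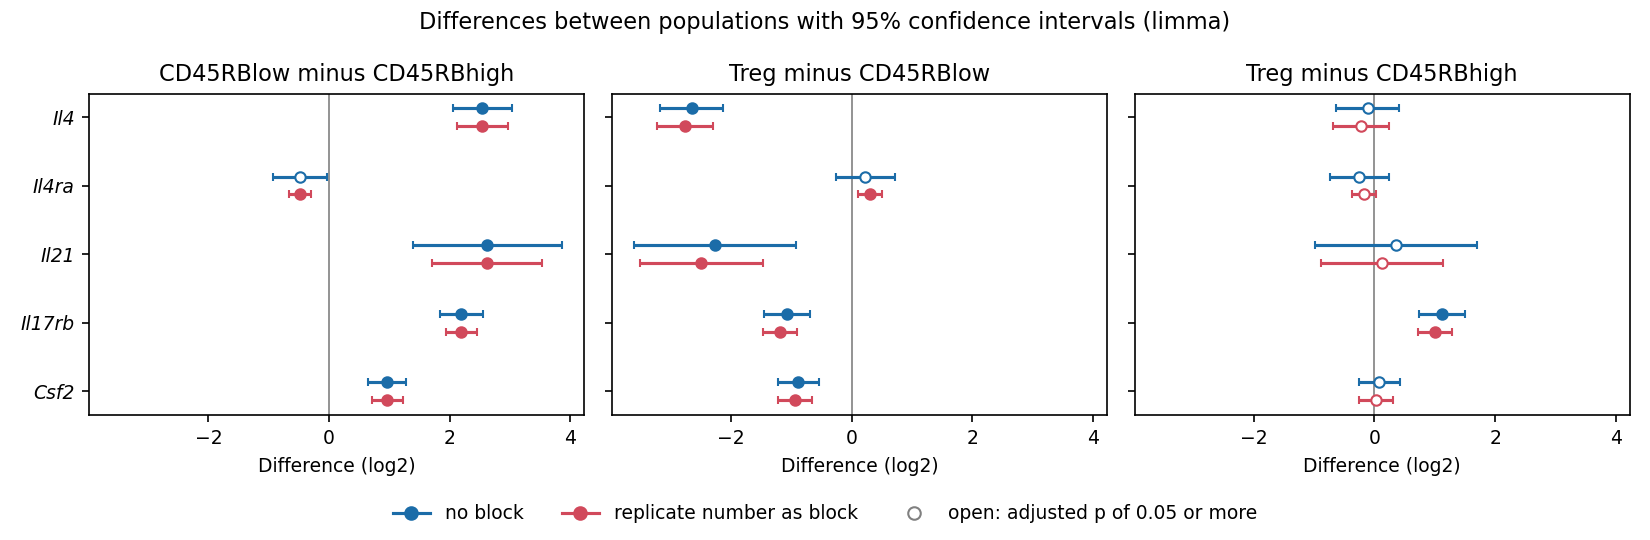
Difference in log2 expression for each gene in the 3 comparisons, with 95% intervals from limma fitted to all 11 arrays, without a block (blue) and with the replicate number as block (red), and open markers for an adjusted p of 0.05 or more. Il4, Il21, Il17rb and Csf2 lie above 0 for CD45RBlow minus CD45RBhigh and below 0 for Treg minus CD45RBlow, and Il17rb alone lies clear of 0 for Treg minus CD45RBhigh.

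By replicate number, the sign of the CD45RBlow minus CD45RBhigh difference was the same in each of the 4 numbers for all 5 genes. For Il4 it was 2.71, 3.15, 1.94 and 2.38 on the log2 scale in replicates 1 to 4, for Il17rb 1.85, 2.18, 2.06 and 2.69, and for Csf2 1.30, 1.22, 0.66 and 0.69. For Il4ra it was -0.28, -0.61, -0.35 and -0.67. Il4ra was the member called in a limma F-test for replicate number (adjusted p = 0.00444), a test that called 14.8% of all probe sets; relative to replicate 1 its level was -0.15 in replicate 2, 0.41 in replicate 3 and 0.48 in replicate 4. The F-test gave adjusted p-values of 0.545 for Il4, 0.23 for Il21, 0.159 for Il17rb and 0.373 for Csf2.

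**Figure D3:**
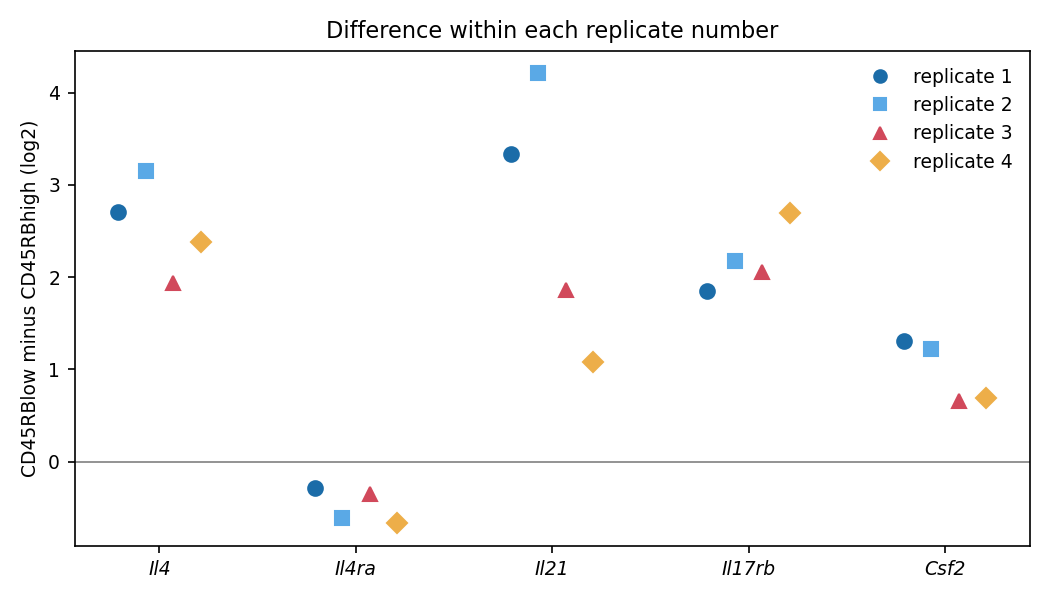
Difference in log2 expression (RMA) between the CD45RBlow and the CD45RBhigh array of each replicate number, for each gene, with marker shapes for the numbers. All Il4, Il21, Il17rb and Csf2 points lie above 0 and all Il4ra points below it, and Il21 spreads most, from 1.09 to 4.21.

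Il21 differed between CD45RBlow and CD45RBhigh cells by 3.33, 4.21, 1.86 and 1.09 in replicates 1 to 4. The mean difference was 3.77 in replicates 1 and 2 and 1.47 in replicates 3 and 4, and the change of 2.30 between these sets (SE 0.32, interval 1.58 to 3.02) passed in limma (adjusted p = 0.0278). Of all probe sets 0.241% passed that test, which are Il21, Il22 (1.63, adjusted p = 0.00261) and Angptl2 (1.10, adjusted p = 0.044). The sets were defined after the values were seen. The call did not hold without CD45RBlow replicate 4 (limma adjusted p = 0.128) or without CD45RBhigh replicate 1 (0.124), replicate 2 (0.125) or replicate 4 (0.0992), and the difference stayed between 1.93 and 2.67.

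Within CD45RBlow cells, Il21 averaged 7.02 in replicates 1 and 2 and 4.52 in replicates 3 and 4, a 5.66-fold difference. Il4 averaged 7.00 and 6.23, a 1.70-fold difference, and Csf2 averaged 5.30 and 4.83, a 1.39-fold difference. For these 3 cytokines both arrays of replicates 1 and 2 lay above both of replicates 3 and 4, as they did for 24.2% of all probe sets. Il17rb did not follow this pattern (7.41 and 7.49), and Il4ra ran the other way (6.41 and 6.94). Of 15 other helper cytokine genes 7 followed the pattern, 2 ran opposite and 6 overlapped: Il22 differed by 1.75, Il17a by 1.58, Ifng by 1.11, Il2 by 0.95, Il10 by 0.90, Il17f by 0.75 and Csf1 by 0.11 on the log2 scale, and Il5 and Il13 ran opposite. Il5 lay under the first quartile of all values in both sets (3.04 in replicates 1 and 2, 3.29 in replicates 3 and 4). For Il4 and Csf2 the change in the CD45RBlow minus CD45RBhigh difference between the sets was 0.77 (limma adjusted p = 0.354) and 0.59 (adjusted p = 0.408), which did not pass.

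**Figure D4:**
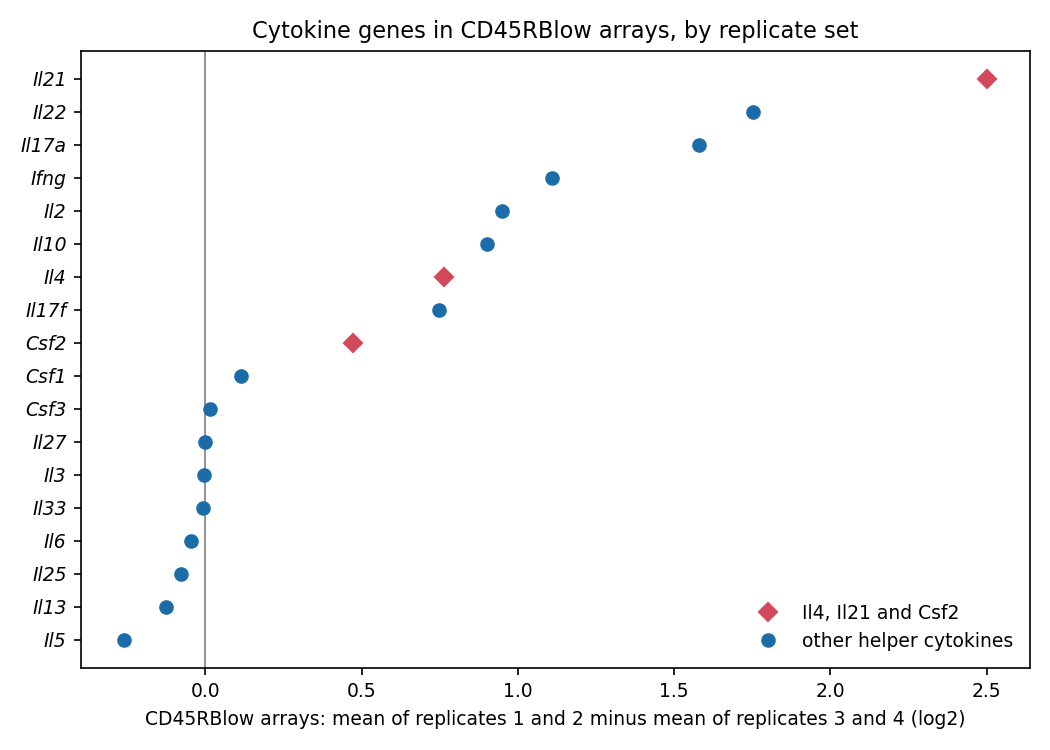
Mean log2 expression of replicates 1 and 2 minus that of replicates 3 and 4 on the CD45RBlow arrays, for Il4, Il21 and Csf2 (diamonds) and 15 other helper cytokine genes (circles). Il21 and Il22 have the widest gaps, 2.50 and 1.75, and Il5 lies lowest.

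Other cytokine genes of helper cells were read from a list of 25, of which 15 were measured. Between CD45RBlow and CD45RBhigh cells 5 rose and 0 fell, with a median difference of -0.03 against -0.08 for all named genes. Il2, a T cell growth factor, was 5.33-fold higher (2.41, limma adjusted p = 1.92e-05), and Ifng, the type 1 helper cytokine, was 9.10-fold higher (3.19, adjusted p = 4.76e-05). Il10, an inhibitory cytokine, rose by 1.09 (adjusted p = 0.0129), and Il22, which acts on epithelia, rose by 1.70 (adjusted p = 0.0139). The CD45RBhigh means of Il2 (3.35) and Il22 (2.68) lay under the first quartile of all values. Of the other type 2 cytokines, Il5 differed by -0.17 (limma adjusted p = 0.242) and Il13 by -0.03 (adjusted p = 0.778), and neither passed. Il5 lay under the first quartile in all 3 populations (means 3.40 in Treg, 3.16 in CD45RBlow and 3.34 in CD45RBhigh), so a difference could be missed. Il5, Il13 and Il25 were named after their values were seen. Il25, the ligand of the receptor that holds Il17rb, differed by -0.04 (adjusted p = 0.705).

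In Treg against CD45RBlow cells 2 of these 15 genes rose and 2 fell, and with the replicate block 2 rose and 4 fell, Il22 (-1.41, limma adjusted p = 0.00751) and Il17a (-1.12, adjusted p = 0.0446) being added. The Treg means of Il22 (3.14) and Il17a (3.18) lay under the first quartile of all values. Il10 was 5.73-fold higher in Treg (limma adjusted p = 5.28e-05) and Csf1, the macrophage growth factor, 2.04-fold higher (adjusted p = 4.57e-05), while Il2 differed by -2.09 (adjusted p = 0.000107) and Ifng by -2.52 (adjusted p = 0.000485). Il4, Il21 and Csf2 were lower in Treg like Il2 and Ifng, whereas Il10 and Csf1 were higher. In Treg against CD45RBhigh cells 2 rose, Il10 by 3.61 (limma adjusted p = 1.63e-06) and Csf1 by 1.24 (adjusted p = 5.53e-06), and 0 fell.

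Receptor chains that pair with or neighbour the members were read from a list of 25, of which 23 were measured. Between CD45RBlow and CD45RBhigh cells 7 rose and 1 fell (7 and 3 with the block), with a median difference of 0.05. Il2rb, a chain of the interleukin-2 and interleukin-15 receptors, rose by 2.57 (limma adjusted p = 6.08e-06), Il2ra by 2.10 (adjusted p = 1.28e-05), Il1rl1, the interleukin-33 receptor, by 2.39 (adjusted p = 4.47e-05) and Il18rap, a chain of the interleukin-18 receptor, by 1.35 (adjusted p = 1.16e-05). The chain that fell was Il7r (-0.50, adjusted p = 0.000481), named as the only one. In Treg against CD45RBlow cells 3 rose and 4 fell (4 and 5 with the block), and in Treg against CD45RBhigh cells 5 rose and 1 fell (5 and 3).

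The direct partners of the members' receptors were named after their values were seen. Between CD45RBlow and CD45RBhigh cells none of these passed in limma without the block: Il2rg, the common gamma chain, differed by 0.05 (adjusted p = 0.52), Il13ra1 by 0.04 (0.698) and Il21r by -0.41 (0.0618), which passed with the replicate block (0.0207). Il17ra, which pairs with Il17rb, differed by -0.25 (SE 0.32, adjusted p = 0.62). In Treg it differed by -0.56 from CD45RBlow (limma adjusted p = 0.39) and by -0.81 from CD45RBhigh (adjusted p = 0.142) without the block, and neither passed. With the block both passed, at -0.74 (adjusted p = 0.0113) and -0.99 (adjusted p = 0.0013). Its log2 level was 8.53, 8.65 and 7.31 on Treg replicates 1, 2 and 4, so replicate 4 lay well below the others. Csf2ra and Csf2rb, the chains of the GM-CSF receptor, differed by 0.06 (0.732) and -0.06 (0.628). Between Treg and CD45RBlow cells Il2rg passed without the block, at -0.22 (adjusted p = 0.029).

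**Figure D5:**
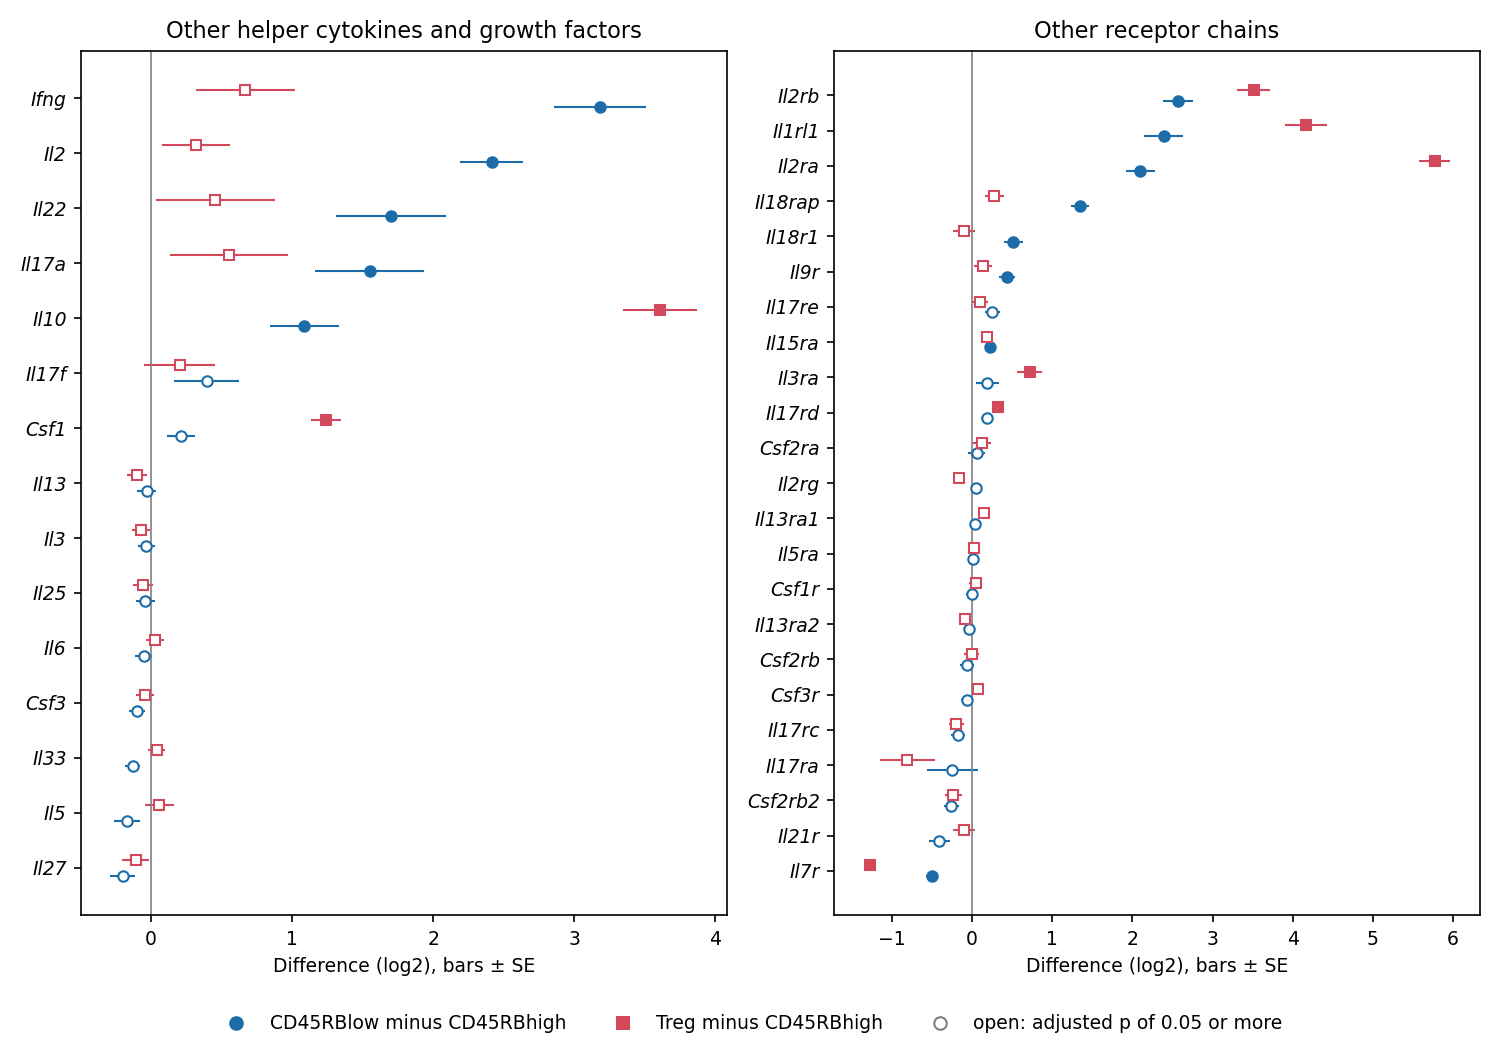
Difference in log2 expression of other helper cytokine genes (left) and receptor chains (right) for CD45RBlow minus CD45RBhigh (circles) and Treg minus CD45RBhigh (squares), with bars of ± SE from limma and open markers for an adjusted p of 0.05 or more. Ifng (3.19) and Il2rb (2.57) stand highest for the former, and Il10 (3.61) and Il2ra (5.77) for the latter.

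Markers of other cells and states were read beside these results, as summed linear levels of the measured genes of each list, and their part in the results was not tested. For NKT markers (7 of 15 measured) the sum was 6356 to 8110 on CD45RBlow arrays, 2770 to 3003 on Treg arrays and 1682 to 2289 on CD45RBhigh arrays. Between CD45RBlow and CD45RBhigh cells 5 of these 7 rose and 1 fell: the chemokine receptor Cxcr6 rose by 3.76, Il2rb by 2.57 and the chemokines Ccl5 and Xcl1 by 2.27 and 2.50, while Klrd1, a receptor of natural killer cells named as the one that fell, differed by -0.94. All 5 that rose are also in the list of activated and memory markers, so the 2 lists are not separate evidence. Klrd1 and Klrk1 are the measured NKT markers not shared with it. Klrk1, named after its value was seen, differed by 0.16 (limma adjusted p = 0.236). Between Treg and CD45RBlow cells 1 of the 7 NKT markers rose and 5 fell. For activated and memory markers (18 of 21 measured) the sum was 10575 to 15104 on CD45RBlow, 6161 to 8312 on Treg and 3159 to 4918 on CD45RBhigh arrays, and 14 of 18 rose in CD45RBlow over CD45RBhigh.

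Type 2 helper markers had their highest sums in Treg, where Il4 was low. Of 12 type 2 helper markers 7 were measured, with sums of 620 to 964 on Treg, 228 to 393 on CD45RBlow and 121 to 128 on CD45RBhigh arrays, and 5 of the 7 rose and 0 fell in CD45RBlow over CD45RBhigh. In Treg 4 rose and 0 fell against CD45RBlow (Ccr8, Il1rl1, Ccr3 and Areg), and 5 rose and 0 fell against CD45RBhigh. Whether these genes mark a type 2 or the regulatory state in Treg cannot be told apart here and was not tested. Il1rl1 alone made up 44.4% to 51.3% of the Treg sums, and the cytokines Il5 and Il13 passed in none of the 3 comparisons. Markers of basophils, mast cells and eosinophils (6 of 13 measured) summed to 214 to 261, 167 to 183 and 141 to 186 in the same order of populations, and 1 of 6 rose in CD45RBlow over CD45RBhigh. Of 5 follicular helper markers measured of 14, Angptl2 and Cxcr5 rose and Il6st and Il6ra fell in that comparison. Their sums were 2052 to 2189 on Treg, 1570 to 2004 on CD45RBlow and 1811 to 2476 on CD45RBhigh arrays. In Treg against CD45RBlow 1 rose, Il6st, and 0 fell, while Angptl2 (0.45, limma adjusted p = 0.246) and Cxcr5 (0.24, adjusted p = 0.578) did not pass. In Treg against CD45RBhigh 2 rose and 2 fell. B cell markers (4 of 9) summed to 835 to 918 on Treg, 367 to 457 on CD45RBlow and 363 to 404 on CD45RBhigh arrays. Of these 4 genes 2 rose in CD45RBlow over CD45RBhigh, and Cd74 (1.94) and Cd72 (0.85) were higher and Cd22 (-0.30) lower in Treg than in CD45RBlow. Myeloid and dendritic markers (10 of 18) summed to 183 to 197, 208 to 218 and 211 to 245 in the same order of populations, and 0 rose and 1 fell in CD45RBlow over CD45RBhigh. Of type 2 innate lymphoid markers other than Il17rb 5 of 8 were measured, with sums of 2736 to 3527, 2169 to 2611 and 2892 to 3258 in that order. Il7r made up 81.5% to 89.1% of the CD45RBlow sums and 96% to 97.3% of the CD45RBhigh sums. Il1rl1, Klrg1 and Areg rose 5.24-, 4.12- and 2.32-fold in CD45RBlow over CD45RBhigh, and Il7r fell. Il1rl1 and Areg are also in the type 2 helper list, Klrg1 in the regulatory T cell signature and Il7r in the naive list. Naive markers (6 of 10) summed to 6624 to 7562 on Treg, 8566 to 10904 on CD45RBlow and 15345 to 16487 on CD45RBhigh arrays, and 1 rose and 5 fell.

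The named genes whose values followed each member most closely over the 11 arrays were ranked by Pearson correlation, as a description. All points share the 11 arrays and the 3 population means, so the correlation after removing population means is given too. Il21 ran with Il22 (0.98, and 0.97 within populations), St6galnac1 (0.97 and 0.91) and Esm1 (0.97 and 0.94). Il4 ran with Xcl1 (0.98 and 0.64), Ccl5 (0.98 and 0.55) and Cxcr6 (0.97 and 0.43). Csf2 ran with Il18rap (0.95 and 0.67), Ifng (0.95 and 0.65) and Il4 (0.95 and 0.63).

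For the receptor chains, Il17rb ran with Cxcr3 (0.97, and 0.26 within populations), Ccr10 (0.96 and 0.58) and Chsy1 (0.92 and 0.42). Il4ra ran with Tbl3 (0.95 and 0.94), Naglu (0.92 and 0.96) and Il11ra2 (0.90 and 0.97). Within populations the correlations of Il21 stayed at 0.91 or above and those of Il4ra at 0.94 or above, while those of Il4, Csf2 and Il17rb were at most 0.67. The SD of Il21 was 1.48 in CD45RBlow and 0.21 in each other population. Its correlations within populations therefore rest mostly on the CD45RBlow arrays, where replicates 1 and 2 lay above 3 and 4. Il21 and Il4ra correlated at -0.75 over the 11 arrays and at -0.67 within populations.

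Some values of the members were identical on 2 arrays of a population: Il21 on Treg replicates 1 and 2, Il17rb on Treg replicates 1 and 4, and Il4ra on CD45RBhigh replicates 1 and 2. Such ties were present in 8.75% of probe sets among Treg arrays, 15.8% among CD45RBlow arrays and 16.4% among CD45RBhigh arrays, so the SD of 0.02 for Il17rb in Treg may understate its spread.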

How the data were processed

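Transcript levels were measured on 11 arrays, 1 per sample, from 3 sorted CD4+ T cell populations. The deposited values are log2 expression made by the authors with RMA, per the series text and the submitters' processing notes, whose version is not given in the sources used here. For RNA extraction the labels give Trizol, whereas the series text gives RNeasy. RefSeq accessions in the row IDs named 962 of 1246 probe sets (908 genes), and 284 had no name here. No scaling, filter or imputation was added.

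All 11 arrays entered a single limma 3.58.1 fit (R 4.3.3) of 3 population means with moderated variances, two-sided, Benjamini-Hochberg over 1246 probe sets, threshold 0.05, intervals at 95%. The script was tested on simulated data. Deviations from population means correlated at 0.31 to 0.56 between arrays of 1 replicate number (10 pairs). The numbers, taken from the labels, were therefore used as a block in alternative fits, although no label says what they mark. The main fit has no block, so its errors and calls leave this likeness out. Deviations also correlated at 0.20 to 0.58 between arrays of other numbers within replicates 1 and 2 or 3 and 4. Between these 2 sets they correlated at -0.65 to -0.18 (20 pairs). Deviations from a mean cancel within each population, so these negative values follow in part from the likeness within sets. Of other genes, each list names at most 4 called genes per comparison by smallest adjusted p, apart from genes said to be named otherwise, and each member the 3 most like genes. The members and gene lists were chosen with earlier results of these data known. Promoters came from RefSeq's table (GRCm38.p6), where all 5 members had entries; that of Csf2 is not shown because the transcript it serves is not given. Alternatives tried were the replicate number as fixed or random block, fits restricted to the arrays compared or to replicates 1 and 2 or 3 and 4, rescaling, dropping dim probe sets, another moderation, and leaving out each array. Figures were drawn with matplotlib 3.10.9.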

Additional observations from a re-analysis of the deposited data

Results flagged for a closer look

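The Il21 difference between CD45RBlow and CD45RBhigh cells was itself different between replicates 1 and 2 and replicates 3 and 4, by 2.30 on the log2 scale in limma's interaction test (adjusted p = 0.0278). It was 3.77 in the former and 1.47 in the latter, positive in all 4 numbers, and the test called 3 of 1246 probe sets. The sets were chosen after the values were seen, and what the numbers mark is not given.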

How the results depend on the processing

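Each comparison was recomputed under 20 alternatives. The count of called probe sets between Treg and CD45RBlow went from 156 to 245 with the replicate block, and between CD45RBlow and CD45RBhigh from 157 to 271. With the fixed block, Il4ra was called at -0.48 for CD45RBlow minus CD45RBhigh and at 0.30 for Treg minus CD45RBlow, and that block changed no other call of the 5 genes. With a random block neither Il4ra difference passed (-0.48, limma adjusted p = 0.058, and 0.25, adjusted p = 0.39). Among replicates 1 and 2 alone Il4ra was called for CD45RBlow minus CD45RBhigh at -0.44 (limma adjusted p = 0.0416), and among replicates 3 and 4 alone at -0.51 (adjusted p = 0.0292). In the latter set Treg has only replicate 4, which is assumed to vary like the other arrays. It gave Il4 a Treg minus CD45RBhigh difference of 0.25 and Csf2 a Treg minus CD45RBlow difference of -0.61, which no longer passed. Il21 for Treg minus CD45RBlow stayed at -2.27 and did not pass with only the arrays compared. Leaving out 1 array at a time gave -2.74 to -1.73 for Il21 in Treg minus CD45RBlow, -0.29 to 0.039 for Il4 in Treg minus CD45RBhigh and 1.93 to 2.67 for the change of Il21 between replicate sets. It gave 110 to 187 probe sets for the replicate number test (185 with all arrays), 111 without Treg replicate 2, 117 without Treg replicate 4 and 110 without CD45RBlow replicate 1, and 62 were called with the CD25- populations alone. The cause was not tested. Il4, Il21, Il17rb and Csf2 kept their calls for CD45RBlow minus CD45RBhigh under all 20. Another row per gene was not tried, since each gene had 1. Signal near background limits Il21 in Treg and CD45RBhigh, and 3 or 4 arrays per population limit all values. In these 2 populations Il4 and Csf2 lay above the first quartile of all values (3.64) but under the array medians (4.85 to 4.94). Their folds may therefore also be understated, and a difference between Treg and CD45RBhigh could be missed.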
